A study of Mus musculus with 8 samples.

Results

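The lists compared are the peaks called in chondrocytes labelled Utx-cKO and Jmjd3-cKO, the knockouts of the 2 enzymes that remove methyl groups from lysine 27 of histone H3. They rest on 4 of the 8 libraries of the study: 1 chromatin immunoprecipitation (ChIP) library and 1 input library for each genotype. Their titles share a prefix that the wild-type and Ezh2-cKO libraries do not have. The members are the 49405 Utx-cKO peaks and all Jmjd3-cKO peaks, which are 22392 fewer, out of 138214 peaks in 4 lists. The study set the trimethyl mark of H3 lysine 27 (H3K27me3) in wild-type mouse chondrocytes from cartilage against that in cells lacking Ezh2, Utx or Jmjd3. The cells were grown in serum-containing medium, and the antibody was the same in all 4 genotypes. The letters cKO stand for a conditional knockout, which the labels also spell Cko. The sources used here do not give the Cre driver, the strain, or the age, sex and number of the animals. With 1 ChIP library a side nothing below has a replicate check, no test between genotypes was made. Intervals beside percentages are Wilson intervals at the 95% level, which take in counting error alone.

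Utx (gene Kdm6a, on the X chromosome) and Jmjd3 (gene Kdm6b) are related oxygen-dependent demethylases that take methyl groups off H3 lysine 27. The mark they remove is laid down by Polycomb repressive complex 2, whose catalytic subunit is Ezh2, and is best known from silenced developmental genes such as the Hox clusters and the regulators of other lineages. Utx is also a subunit of the complexes that place the activating lysine 4 mark at enhancers, while Jmjd3 is best known as an inducible gene of inflammation and differentiation. Cartilage cells make a matrix of type II collagen and aggrecan under control of Sox9, and pass through a hypertrophic stage, marked by Ihh and Runx2, before bone forms.

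A gene is called marked here when a peak lies within 2 kb of either of its ends, and marked in 1 list only when the other list has in addition no peak within 5 kb of either end. Both lists held peaks at most genes of housekeeping and cartilage. In Utx-cKO 29 of 30 housekeeping genes and 23 of 25 cartilage genes were marked, and the counts were 29 and 23 in Jmjd3-cKO. Over all protein-coding genes the share marked was 67.7% in the full Utx-cKO list, 64.0% in the Utx-cKO list shortened to the length of the other, and 63.0% in Jmjd3-cKO. Genes of muscle and heart, which chondrocytes do not use, stood at 12, 7 and 7 of 19 in the same order. The share in the full Utx-cKO list (63.2%) is close to that of all genes. In the shortened Utx-cKO list and in Jmjd3-cKO the share (36.8%) is below that of all genes. That housekeeping and cartilage genes were marked this often goes against what an H3K27me3 profile is known for, so a peak is called a peak of a library labelled H3K27me3 and a marked gene is not read as a silenced one. A peak list shows no expression, so it does not check the cell type.

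The Utx-cKO ChIP library was the deeper of the pair. After duplicate removal it held 34359111 fragments against 25655346 in Jmjd3-cKO (ratio 1.34), and the inputs held 23983492 and 16645811 (ratio 1.44). A deeper library can give a longer list at the same threshold. Each comparison was therefore made on equally long lists, the whole Jmjd3-cKO list and as many Utx-cKO peaks of highest pileup, with the full lists beside them. Pileup, the coverage signal of a peak in stacked fragments, is scaled within each library pair and was compared between lists as ranks only. The lists give no summit, so pileup is not read as the height of a peak, and its relation to width was not tested. On both sides of the edge the pileup was 14.7, and the last peak kept and the first left out had fold enrichments over input of 3.04 and 3.06 and widths of 1969 and 450 bp. At equal length the Utx-cKO list covered 56.1 Mb and the Jmjd3-cKO list 41.4 Mb, and the median peak was 1515 bp wide in the first and 1092 bp in the second.

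The promoters below belong to genes marked in 1 list only, with no peak of the other full list within 5 kb, and show where the lists part. They are the strongest such genes, by pileup, whose promoter window had at least 150 of its 300 bases inside the peak, a choice made after the values were seen. Capitals mark CG dinucleotides, the sites of DNA methylation, searched as the letters CG, which read the same on both strands. Of all 21263 RefSeq promoter windows of this length on GRCm38.p6, 95.4% hold at least 1 CG, and the median window holds 13. All are written 5′ to 3′ on the gene's own strand. The 3 genes with a Utx-cKO peak and no Jmjd3-cKO peak are Zfp33b (chr5:104571422-104571721, plus strand, 9 CG), Rsl1 (chr13:67172932-67173231, plus strand, 9 CG) and Selenbp1 (chr3:94932833-94933132, plus strand, 5 CG).
Zfp33b: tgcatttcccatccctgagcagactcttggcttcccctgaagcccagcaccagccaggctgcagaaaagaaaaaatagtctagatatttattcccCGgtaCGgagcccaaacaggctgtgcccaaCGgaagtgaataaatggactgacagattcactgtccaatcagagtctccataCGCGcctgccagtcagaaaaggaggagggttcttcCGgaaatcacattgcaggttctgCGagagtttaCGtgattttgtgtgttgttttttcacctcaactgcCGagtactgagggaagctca
Rsl1: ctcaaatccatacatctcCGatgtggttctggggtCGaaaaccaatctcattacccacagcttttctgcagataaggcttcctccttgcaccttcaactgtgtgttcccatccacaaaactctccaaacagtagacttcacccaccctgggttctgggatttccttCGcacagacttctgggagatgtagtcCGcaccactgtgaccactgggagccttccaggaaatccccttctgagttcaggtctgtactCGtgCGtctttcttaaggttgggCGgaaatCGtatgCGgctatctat
Selenbp1: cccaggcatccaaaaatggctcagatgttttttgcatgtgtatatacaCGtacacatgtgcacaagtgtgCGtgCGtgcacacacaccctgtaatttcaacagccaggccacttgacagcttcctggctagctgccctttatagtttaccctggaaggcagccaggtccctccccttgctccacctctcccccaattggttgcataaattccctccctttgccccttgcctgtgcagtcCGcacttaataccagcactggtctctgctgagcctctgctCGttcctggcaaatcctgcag

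The 3 with a Jmjd3-cKO peak and no Utx-cKO peak are Prkag3 (chr1:74748906-74749205, minus strand, 11 CG), Rgs5 (chr1:169655251-169655550, plus strand, 6 CG) and Foxi3 (chr6:70956356-70956655, plus strand, 31 CG).
Prkag3: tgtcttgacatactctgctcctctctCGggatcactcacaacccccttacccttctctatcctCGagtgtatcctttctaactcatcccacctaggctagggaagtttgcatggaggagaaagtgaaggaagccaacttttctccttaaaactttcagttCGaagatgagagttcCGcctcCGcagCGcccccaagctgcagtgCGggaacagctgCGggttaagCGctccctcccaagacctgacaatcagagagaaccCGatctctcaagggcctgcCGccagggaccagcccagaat
Rgs5: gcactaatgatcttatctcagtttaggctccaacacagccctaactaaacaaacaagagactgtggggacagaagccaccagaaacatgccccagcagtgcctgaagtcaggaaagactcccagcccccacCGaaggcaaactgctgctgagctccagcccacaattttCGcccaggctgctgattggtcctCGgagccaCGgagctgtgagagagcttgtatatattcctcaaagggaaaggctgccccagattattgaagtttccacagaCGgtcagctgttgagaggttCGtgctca
Foxi3: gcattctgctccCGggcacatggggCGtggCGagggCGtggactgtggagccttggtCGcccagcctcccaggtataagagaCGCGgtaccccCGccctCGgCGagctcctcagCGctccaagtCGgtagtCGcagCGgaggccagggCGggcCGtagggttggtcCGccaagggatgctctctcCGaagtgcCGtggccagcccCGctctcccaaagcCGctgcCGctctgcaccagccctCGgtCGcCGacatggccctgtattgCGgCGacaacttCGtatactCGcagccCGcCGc

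The Utx-cKO peaks at Zfp33b, Rsl1 and Selenbp1 had fold enrichments of 9.05, 5.66 and 4.67 and covered the whole window. All 3 genes were also marked in wild type and Ezh2-cKO, and the calls at Zfp33b and Rsl1 are uncertain because these genes have near-identical copies. Those of Jmjd3-cKO at Prkag3, Rgs5 and Foxi3 had 3.76, 2.90 and 3.27 and covered 178, 229 and 157 of the 300 bases. Zfp33b and Rsl1 encode zinc finger proteins, Selenbp1 a selenium-binding protein, Prkag3 a muscle subunit of AMP-activated kinase, Rgs5 a regulator of G-protein signalling in pericytes, and Foxi3 a forkhead factor of ear and tooth development. A count of CG over the sets of genes in 1 list only would be void, since between 72.1% and 74.8% of their members have a promoter window in the table.

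Most of each list lay inside the other, and the strong peaks almost wholly so. At equal length a Jmjd3-cKO peak overlapped 76.1% of Utx-cKO peaks (75.6 to 76.6%), and a Utx-cKO peak 78.9% of Jmjd3-cKO peaks (78.4 to 79.3%). With each list split into 4 equal groups by pileup, these shares were 99.9% and 99.99% in the highest group and 37.4% and 34.5% in the lowest. Peaks with no partner were weak and narrow. Their median fold enrichment was 3.15 for Utx-cKO and 2.81 for Jmjd3-cKO, and their median widths were 616.5 and 476 bp, against 6.10 and 5.18 and 1891 and 1391 bp for overlapped peaks. Over the full lists the shares were 47.7% of the Utx-cKO peaks and 89.9% of the Jmjd3-cKO peaks.

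Regions in 1 list only lay mostly away from gene ends. Of the Utx-cKO peaks in the shortened list, 6452 touched no Jmjd3-cKO peak: 12.2% of them had their centre near a gene end (2 kb or less), 52.2% in the rest of a gene body and 35.6% between genes. Of the Jmjd3-cKO peaks, 2735 touched no peak of the full Utx-cKO list, with 5.74%, 63.5% and 30.8% in the same places. Overlapped peaks were at gene ends in 55.1% and 55.2% of cases. The wild-type and Ezh2-cKO lists were not used to choose these regions and give an outside reading. They were used at full length, with 28057 peaks in wild type and 33739 in Ezh2-cKO, so a higher share in Ezh2-cKO is not read as a likeness. A wild-type peak overlapped 27.7% (26.6 to 28.8%) of the Utx-cKO regions and 25% (23.4 to 26.7%) of the Jmjd3-cKO regions. The Ezh2-cKO list overlapped 43.3% (42.1 to 44.5%) of the Utx-cKO regions and 25.2% (23.6 to 26.9%) of the Jmjd3-cKO regions. Neither list overlapped 47.8% and 61.3%. Both definitions differ in list length, because the Jmjd3-cKO regions were held against the longer Utx-cKO list, so the 2 sets are given side by side and not ranked.

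**Figure D1:**
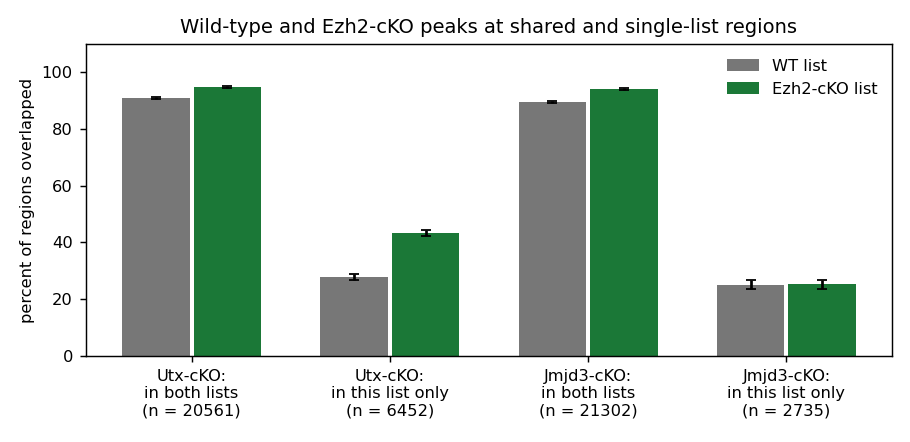
Share of peaks overlapped by the wild-type list (grey) and the Ezh2-cKO list (green), in percent, for peaks in both lists (overlapped by the other list at equal length) and for peaks in 1 list only; bars show the share and error bars its 95% Wilson interval. Shared peaks stand at 89.6 to 94.8%, peaks in 1 list only at 25 to 43.3%.

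Few genes were marked in 1 list only. At equal length both lists marked 13495 of 21887 protein-coding genes (61.7%). A further 339 genes (1.55%) were marked in Utx-cKO only and 221 (1.01%) in Jmjd3-cKO only. With full lists the counts were 800 (3.66%) and 68 (0.311%), since the longer Utx-cKO list marked 14820 genes (67.7%), against 14014 at equal length (64.0%) and 13785 in Jmjd3-cKO (63.0%). The order of the counts depends on how the lists are made equal. When the Utx-cKO list was shortened to the covered length of the Jmjd3-cKO list instead, an alternative chosen after seeing the data, 49 genes were in Utx-cKO only and 1003 in Jmjd3-cKO only.

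The 339 genes rested on 323 peaks with a median fold enrichment of 3.29, and the 221 on 208 peaks with 2.92, against 9.08 for the Utx-cKO peaks of genes marked in both. Of the 221 genes, 153 had a Utx-cKO peak within 5 kb among those left out by the shortening, and 68 had none. Of the 339, 200 were marked in Ezh2-cKO (59.0%, 53.7 to 64.1%) and 122 in wild type (36%, 31.1 to 41.2%), and 119 in neither. Of the 221, 108 were marked in Ezh2-cKO (48.9%, 42.4 to 55.4%) and 88 in wild type (39.8%, 33.6 to 46.4%), and 86 in neither. Of the 68, 44 were marked in neither. These counts use the full wild-type and Ezh2-cKO lists, of which the second is the longer. Genes marked in both demethylase knockouts were marked in wild type in 97.8% of cases and in Ezh2-cKO in 99.0%.

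The strongest gene marked in Utx-cKO only was Birc7, an inhibitor of apoptosis on chromosome 2. Its peak was 8183 bp wide with fold enrichment 9.75, and a Jmjd3-cKO peak farther than 5 kb from either end of the gene covered 19.1% of it. Card14, a scaffold of NF-kappaB signalling in skin, was of the same kind, with a peak of 10201 bp of which 26.5% was covered. These were the 2 genes of the 339 whose own peak overlapped a Jmjd3-cKO peak.

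Zfp33b had a peak in 3 of the 4 libraries: fold enrichment was 9.05 in Utx-cKO, 7.19 in wild type and 8.19 in Ezh2-cKO, and Jmjd3-cKO had no peak. Rsl1 showed the same pattern, with 5.66, 5.90 and 5.49, as did Zfp729b, with 5.27, 5.78 and 7.21. Jmjd3-cKO thus stood alone without a peak at these 3 zinc finger genes. They belong to families of near-identical copies, and the sources used here do not say how reads that match several places were counted, so these calls are uncertain.

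Vsx1, a retinal homeobox gene, had peaks in Utx-cKO (4.36) and Ezh2-cKO (4.46) alone. Srp54b (6.72) and Mroh2a (2.16) had a peak in Utx-cKO and in none of the other 3 lists. Srp54b has close copies, so its call is uncertain too. Tmem74, Selenbp1 and the immune ligand gene Cd70 were also among the 12 strongest, with fold enrichments of 5.49, 4.67 and 3.84, and all 3 were also marked in wild type and Ezh2-cKO.

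Among genes marked in Jmjd3-cKO only, the 3 strongest lay on chromosome 17 and had no Utx-cKO peak within 5 kb. Ermard, which encodes a membrane protein of the endoplasmic reticulum, had fold enrichment 11.6 in Jmjd3-cKO and 5.91 in wild type. Dynlt1b, a dynein light chain, had 7.88 and 6.12, and Rnaset2b, a ribonuclease, 6.55 and 4.41. Ezh2-cKO had no peak at any of them, so at these genes Jmjd3-cKO stood with wild type and Utx-cKO with Ezh2-cKO. Dynlt1b and Rnaset2b have near-identical copies nearby, and their calls are uncertain.

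The next in strength were weaker and mostly had a Utx-cKO peak below the edge of the shortened list. Pacsin1, an adaptor of endocytosis, ranked 11796 in Jmjd3-cKO and 28192 in Utx-cKO, with fold enrichments of 4.39 and 3.03. Marveld2, of tight junctions between epithelial cells, ranked 14137 and 32861, and Kdf1, a regulator of skin differentiation, 14348 and 27151. Serpinf2, Mybph, Duoxa2 and Lrrc10 were of the same kind, with Jmjd3-cKO ranks from 12402 to 15098 and Utx-cKO ranks from 29347 to 30891. Fndc3c1, on the X chromosome, had a Jmjd3-cKO peak (3.61) and none in the other 3 lists.

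Genes with a Jmjd3-cKO peak and none in the full Utx-cKO list went on from there with low values. Esrp1, a splicing factor of epithelial cells, Fermt1, an integrin activator of epithelia, and Fbll1 had fold enrichments of 2.84, 3.06 and 3.92, and no peak in wild type or Ezh2-cKO. Prkag3 (3.76) had one in Ezh2-cKO (2.44). Tmsb15b1 (2.88), H2-T-ps (4.61) and Lipo2 (4.22) belong to families of close copies and are uncertain, and Ankrd66 stood at 2.53. Of the 68 such genes, 8 had a fold enrichment of 4 or more, and of the 339 Utx-cKO genes 41 had.

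Genes in 1 list only were spread over the chromosomes. The share of a chromosome's genes marked in Utx-cKO only ran from 0.936% on chromosome 7 to 2.64% on chromosome 3, and that in Jmjd3-cKO only from 0.353% on chromosome 14 to 1.61% on chromosome 17, leaving chromosome Y aside. On the X chromosome, which carries Kdm6a, 19 genes were marked in Utx-cKO only and 15 in Jmjd3-cKO only, of 966. None of the 256 genes of chromosome Y was marked in Utx-cKO, Jmjd3-cKO or Ezh2-cKO, and 4 were in wild type. Of 1110 olfactory receptor genes, 1 was marked in both lists, 3 in Utx-cKO only and 1 in Jmjd3-cKO only.

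The deleted genes themselves were marked in both libraries, which does not check the labels, since a peak list does not show whether an exon is missing. The Kdm6a peak was 3968 bp wide with fold enrichment 17.4 in Utx-cKO, and 3919 bp with 15.3 in Jmjd3-cKO. The widths in wild type and Ezh2-cKO were 3727 and 4439 bp. At Kdm6b the Utx-cKO peak was 28115 bp wide and lay over 2 Jmjd3-cKO peaks, the stronger of 14545 bp, against 12350 bp in wild type and 14556 bp in Ezh2-cKO. The Utx-cKO library thus had the widest single peak over the gene of the other demethylase, but the 2 Jmjd3-cKO peaks together covered 89.5% of it. The other widths are those of the strongest peak alone. Ezh2 differed little, with 2757 bp in Utx-cKO and 2548 bp in Jmjd3-cKO. Uty, the Y-linked relative of Utx, had no peak in either list. Of 24 genes of the Polycomb complexes and H3K27 demethylases, the same number, 21, was marked in each list, with none in 1 list only.

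Gene lists were then read for members in 1 list only and for the width of the strongest peak. Cartilage genes were marked alike: 23 of 25 in each full list, with none in 1 list only, and 21 in the shortened Utx-cKO list. Chad, a matrix protein that binds chondrocytes, and Cilp, of the intermediate layer of cartilage, were marked in Jmjd3-cKO only at equal length, because their Utx-cKO peaks ranked 33506 and 28964. Sox9 had fold enrichments of 14.6 in Utx-cKO and 13.1 in Jmjd3-cKO, Col11a1 9.06 and 9.91, and Acan, the aggrecan gene, 7.65 and 6.38. Col9a1, with 4.14 and 2.74, and Fmod, with 4.44 and 2.46, differed more.

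Widths differed as well. Over Col2a1, the type II collagen gene, the peak was 26223 bp in Utx-cKO, 7451 bp in Jmjd3-cKO, 16587 bp in wild type and 19793 bp in Ezh2-cKO, and the Utx-cKO peak lay over 6 Jmjd3-cKO peaks that covered 65.1% of it. By the strongest peak alone, Jmjd3-cKO was the narrowest there and Utx-cKO the widest. Col9a3, a chain of type IX collagen, had 15223 bp in Utx-cKO, 3934 bp in Jmjd3-cKO, 4097 bp in wild type and 7987 bp in Ezh2-cKO. Fmod, a collagen-binding proteoglycan, had 12677, 3168, 2489 and 3074 bp in the same order, and Utx-cKO alone stood high. Snorc, a surface proteoglycan of chondrocytes, had 5865, 1742, 714 and 5955 bp, with Utx-cKO and Ezh2-cKO high. Jmjd3-cKO peaks covered 27.5%, 39.5% and 30.3% of the Utx-cKO peaks at Col9a3, Fmod and Snorc. Utx-cKO was not the widest at every cartilage gene. Hapln1 had 6610, 5314, 7834 and 10399 bp in the same order, and Ucma 2965, 1904, 3944 and 4058 bp. Col11a1 had 9385, 9278, 9980 and 11865 bp. Acan, Col9a1 and Matn1 were also widest in Ezh2-cKO. The peak at Sox9 was 9749, 8029, 7847 and 8929 bp wide, and at Trps1, a zinc finger factor of the growth plate, 14908, 14633, 14625 and 14790 bp. Trps1 was nearly equal in the 4 libraries, while at Sox9 the Utx-cKO peak was 1.21 times as wide as the Jmjd3-cKO peak, which is also the median ratio over paired peaks. Of the 21 cartilage genes marked in both, 18 had the wider peak in Utx-cKO, with a median log2 width ratio of 0.43, against 10511 of 13495 and 0.24 over all genes marked in both. The strongest peaks of these genes overlapped, except at Matn1, where another Jmjd3-cKO peak covered 91.5% of the Utx-cKO peak. Sox5, Sox6 and Scrg1 had the wider peak in Jmjd3-cKO.

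**Figure D2:**
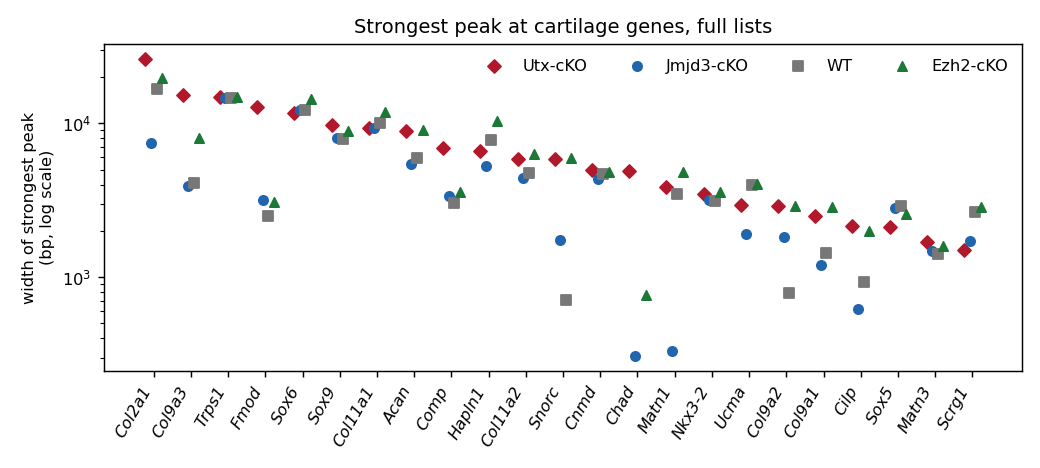
Width of the strongest peak within 2 kb of each cartilage gene (bp, log axis) in the full lists of 4 libraries, genes ordered by their Utx-cKO width; a missing symbol means no peak. Utx-cKO runs from 26223 bp at Col2a1 to 1504 bp at Scrg1, and Jmjd3-cKO goes down to 333 bp at Matn1, where its strongest peak lies elsewhere, and 305 bp at Chad.

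Hypertrophy and osteogenesis genes were the list with the largest gap in counts in favour of Utx-cKO at equal length, with 17 of 25 marked (18 in the full list) against 13 in Jmjd3-cKO, a share of 68% against 52%. Over all genes these shares were 64.0% and 63.0%, so the Utx-cKO share was near that of all genes and the Jmjd3-cKO share below it. Mepe, a bone matrix phosphoprotein, was marked in Utx-cKO only, with fold enrichment 3.48, and in neither wild type nor Ezh2-cKO. Pth1r, the receptor for parathyroid hormone, and Panx3, a channel of hypertrophic cells, were also marked in Utx-cKO (3.56 and 3.02) and not in Jmjd3-cKO, but had a Jmjd3-cKO peak within 5 kb. All 13 genes marked in both had the wider peak in Utx-cKO, with a median log2 ratio of 0.80. Over all genes marked in both, the values were 10511 of 13495 and 0.24. Ihh, the hedgehog ligand of prehypertrophic cells, had a peak of 2255 bp in Utx-cKO, 653 bp in Jmjd3-cKO, 617 bp in wild type and 1981 bp in Ezh2-cKO. Its pileup stood at percentile 23.2 of the Utx-cKO list and 51.6 of the Jmjd3-cKO list. Runx2, the master factor of bone, had 2539 bp in Utx-cKO and 1901 bp in Jmjd3-cKO. Its peak was wider in wild type (3068 bp) and Ezh2-cKO (3450 bp) than in either. Col10a1 and Mmp13, genes of the hypertrophic matrix, had no peak in any of the 4 lists.

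Hox genes, the textbook targets of H3K27me3, were marked alike in both lists and had nearly equal widths. Of 39, 33 were marked in Utx-cKO and 34 in Jmjd3-cKO, with Hoxd4 (fold enrichment 4.03) in Jmjd3-cKO only at equal length. With full lists no Hox gene was in Jmjd3-cKO only. Hoxd4 had peaks in wild type and Ezh2-cKO as well. The median log2 width ratio was 0.03, with 20 of 32 wider in Utx-cKO. The peak over Hoxc8, Hoxc9 and Hoxc10 was the longest of the Jmjd3-cKO list, at 33530 bp, and was 33911 bp in Utx-cKO. One peak over Hoxa7, Hoxa9, Hoxa10 and Hoxa11 was 22170 bp in Utx-cKO and 21643 bp in Jmjd3-cKO. Neighbouring Hox genes that share a peak are 1 measurement.

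Regulators of other lineages split both ways. Of 45 neural and endoderm factors, 27 (60%) were marked in the shortened Utx-cKO list and 28 (62.2%) in Jmjd3-cKO, but 36 (80%) in the full Utx-cKO list. Over all genes the shares were 64.0%, 63.0% and 67.7% in the same order, so the first 2 were close to those of all genes. Nkx6-2 and Neurod1, factors of neurons, T, of the early mesoderm, and Vsx1 were in Utx-cKO only at equal length, with fold enrichments of 3.16, 3.10, 3.29 and 4.36. Pax8, of thyroid and kidney, Sox2 and Sox3, of neural progenitors, and Olig1, of oligodendrocytes, were in Jmjd3-cKO only, with 3.64, 3.38, 3.15 and 2.56. Of these, Sox2 and Sox3 had a Utx-cKO peak at ranks 42563 and 34338, and in the full lists Olig1 alone was left in Jmjd3-cKO only, while Pax6, Olig2 and Lhx3 joined the Utx-cKO side at ranks from 39642 to 46862. Nkx2-5, of the heart, was in Utx-cKO only (3.15), and Pax3, of muscle progenitors, in Jmjd3-cKO only at equal length. Myf5, Pax7, Mymk and Des, of muscle, were in Utx-cKO only in the full lists, with fold enrichments from 2.60 to 2.94. Of limb and skeletal patterning factors, 30 of 35 (85.7%) were marked in the shortened Utx-cKO list, 33 (94.3%) in the full one and 33 in Jmjd3-cKO. Alx1 and Uncx were in Jmjd3-cKO only at equal length, with fold enrichments of 2.99 and 2.66. Alx1 had a Utx-cKO peak at rank 32145, and in the full lists Uncx alone was left in Jmjd3-cKO only. Tbx5, of the forelimb, was in Utx-cKO only in the full lists (2.66).

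Signalling lists held few members in 1 list only. Among Wnt ligands and antagonists 26 of 34 (76.5%) were marked in the shortened Utx-cKO list, 31 (91.2%) in the full one and 28 (82.4%) in Jmjd3-cKO. The shares over all genes were 64.0%, 67.7% and 63.0%. Rspo4, which enhances Wnt signals, was in Jmjd3-cKO only at equal length, and Wnt3, Wnt3a and Wnt9b were in Utx-cKO only in the full lists, Wnt3 and Wnt9b through 1 shared peak. The strongest peak at Wnt10a was 1114 bp with fold enrichment 4.64 in Utx-cKO, and 701 bp with 4.92 at another place in Jmjd3-cKO. Both places had a peak in both lists: the other list covered 73.0% of the first peak and 96.9% of the second. In the transforming growth factor beta and bone morphogenetic protein list, Nodal (4.15) was in Utx-cKO only and Mstn, the myostatin gene, in Jmjd3-cKO only at equal length (2.99). Fgf1 (3.39), a growth factor, and Disp2 (3.67), of the Dispatched family, were in Utx-cKO only, as were Aldh1a1 (4.30), of retinoic acid synthesis, Fabp4 (3.19), of fat cells, Timp4 (3.33), a metalloproteinase inhibitor, and Kcnq1 (3.50), in an imprinted cluster. Il6 and the retinoic acid receptor gene Rarb joined them in the full lists, at ranks 41469 and 41668.

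Among genes of blood, endothelium and fat the counts differed by 1 or 2 genes at equal length, as read against 64.0% of all genes in the shortened Utx-cKO list, 67.7% in the full one and 63.0% in Jmjd3-cKO. Blood genes were marked in 9 of 20 cases in the shortened Utx-cKO list, 12 in the full one and 7 in Jmjd3-cKO. Cd3e, of T cells, and Fcer1g, an Fc receptor chain, were in Utx-cKO only at equal length (3.04 and 3.03), and Csf1r and Laptm5 in the full lists. Endothelial genes stood at 9, 11 and 7 of 17, with Sox17 in Utx-cKO only in the full lists. Fat genes stood at 11, 11 and 10 of 14, and all 10 marked in both were wider in Utx-cKO, with a median log2 ratio of 0.82. Whether other cells in the cultures play a part in these counts was not tested. At 21 class I and class II histocompatibility genes the counts were 13 and 14, with H2-Q2 in Jmjd3-cKO only, and these copies are uncertain.

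**Figure D3:**
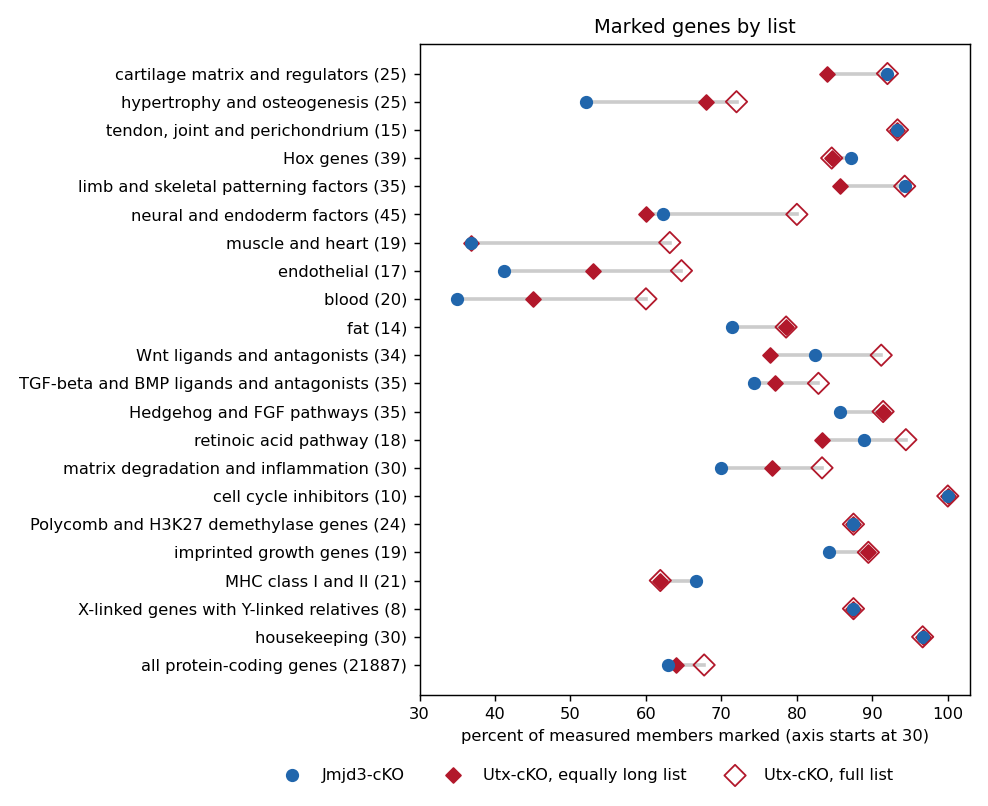
Percent of the measured members of each gene list that were marked, with the number of members in brackets: Jmjd3-cKO (blue circles), the equally long Utx-cKO list (filled red diamonds) and the full Utx-cKO list (open diamonds). The horizontal axis starts at 30 percent. Muscle and heart genes stand at 7 of 19 in both equally long lists and at 12 in the full Utx-cKO list.

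Domains, peaks of 5 kb or more, were the clearest difference between the lists. The shortened Utx-cKO list had 1833 and the Jmjd3-cKO list 768, against 701 in wild type and 868 in Ezh2-cKO at the same list length. At 10 kb or more there were 246 and 75. Domains with no peak of the other list numbered 36 for Utx-cKO and 0 for Jmjd3-cKO, and 68 and 0 with full lists. Of the 36, 33 overlapped an Ezh2-cKO peak, 24 a wild-type peak and 2 neither, and 25 were centred inside genes, 5 at gene ends and 6 outside genes. They were weak, with a median fold enrichment of 3.21. When peaks within 3 kb of each other were merged, the counts were 56 and 15, and at equal covered length they were 0 and 14, so the order depends on how the lists are made equal.

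The longest of the 36 was a domain of 10536 bp on chromosome 4 at Capzb, a subunit of the actin capping protein, with fold enrichment 3.05. Next came 8783 bp on chromosome 15 between Fmnl3, a formin, and Prpf40b, a splicing factor, with 3.09. Cep170b, of microtubules, Atg16l2 with Fchsd2, Micall1, of endosome recycling, and Ndufs7 with Pwwp3a followed among others, from 8321 down to 6831 bp. Plin1, which coats fat droplets, had a domain of 6444 bp and the highest fold enrichment of these, 3.77. In the full list the longest was 12708 bp at Gas6, a ligand of receptor kinases, with no wild-type or Ezh2-cKO peak over it.

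Some Utx-cKO domains ran over several Jmjd3-cKO peaks of any width. Of the 1833 Utx-cKO domains 525 (28.6%) overlapped at least 2 Jmjd3-cKO peaks, and 42 of the 768 Jmjd3-cKO domains (5.47%) overlapped at least 2 Utx-cKO peaks. The median Utx-cKO domain was covered over 65.2% of its length by Jmjd3-cKO peaks, and the median Jmjd3-cKO domain over 100%. The longest Utx-cKO peak, 56001 bp at chr8:84698318-84754318, lay over 10 Jmjd3-cKO peaks, which covered 71.6% of it. It touched the ends of Lyl1, a blood transcription factor, Trmt1 and Nfix, a nuclear factor I gene. A second peak of 37904 bp followed in Nfix, over 4 Jmjd3-cKO peaks. On chromosome 10 a peak of 45573 bp ran over 9 Jmjd3-cKO peaks and the ends of Cirbp, Midn, Efna2, Atp5d, Cbarp and Fam174c. Nfic (31867 bp over 5 peaks), Bcl9l, a Wnt coactivator (28901 bp over 4), Zmiz1 (27562 bp over 5) and the stretch of Eif4b, Tns2 and Spryd3 (27319 bp over 4) were of the same kind.

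Converse cases were shorter. The longest Jmjd3-cKO peak over more than 1 Utx-cKO peak was 15298 bp at Hoxc5 and Hoxc6, over 2 peaks that covered 93.2% of it. Trib3, a stress-induced pseudokinase, had 11745 bp, the stretch of Rpl7a, Med22 and the Surf genes 11019 bp, Stk40 10859 bp and Rnd3 10495 bp. Col1a2, of type I collagen, had 9436 bp and Papss2, which supplies sulphate for cartilage matrix, 9422 bp. Each of these lay over 2 Utx-cKO peaks.

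Peaks that could be paired one to one were wider in Utx-cKO. Among 19644 pairs the median width was 1830.5 bp in Utx-cKO and 1384.5 bp in Jmjd3-cKO, a median ratio of 1.21 (log2 0.27, quartiles 0.02 to 0.71), and the Utx-cKO peak was the wider in 76.7%. It was at least 2 times as wide in 3140 pairs, and the Jmjd3-cKO peak in 283. The ratio was smaller for stronger peaks: 1.44, 1.27, 1.18 and 1.12 from the lowest to the highest of 4 equal groups by pileup rank. At gene ends it was 1.17, inside genes 1.27 and outside genes 1.29. Full lists gave 22484 pairs with a median log2 ratio of 0.28.

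Widths were also read in all 4 libraries. In 16985 regions with exactly 1 peak in each of the 4 full lists, the median width was 1855 bp in Utx-cKO, 1463 bp in Jmjd3-cKO, 1413 bp in wild type and 1541 bp in Ezh2-cKO. Utx-cKO stood apart from the other 3, and its peak was the widest of the 4 in 56.7% of the regions. The Ezh2-cKO library held 34786292 ChIP fragments and 24041619 input fragments, close to the Utx-cKO numbers, and its median ratio to Jmjd3-cKO was 1.03, against 1.18 for Utx-cKO and 0.976 for wild type. The wild-type library held 29222251 ChIP fragments. With 1 library a genotype, the cause of the width difference, depth included, was not tested. Fragment sizes were 223 bp in Utx-cKO, 246 bp in Jmjd3-cKO, 228 bp in wild type and 231 bp in Ezh2-cKO.

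**Figure D4:**
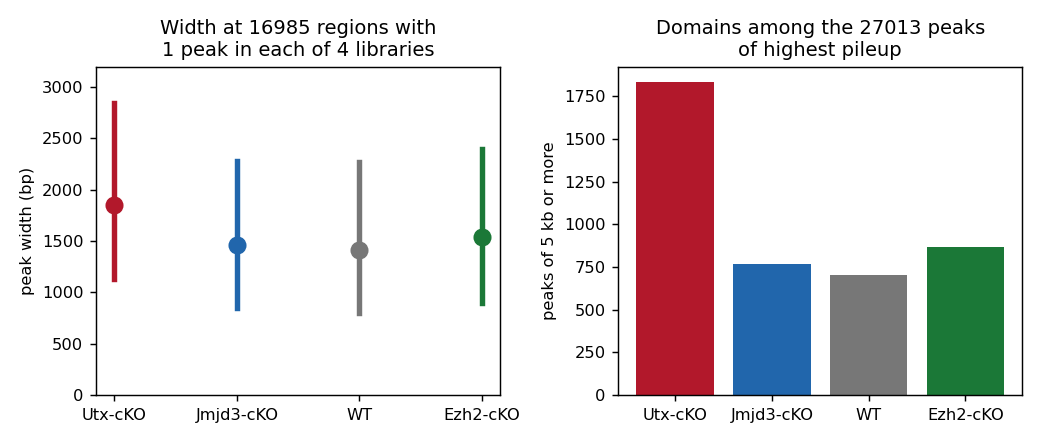
Left, peak width in bp at 16985 regions with 1 peak in each of 4 libraries (point, median; bar, quartiles). Right, number of peaks of 5 kb or more among equally many peaks of highest pileup in each list. Utx-cKO is at 1855 bp and 1833 domains, and the other 3 libraries lie between 1413 and 1541 bp and between 701 and 868 domains.

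Among pairs near a gene end with a peak of 5 kb or more, the largest width ratios in favour of Utx-cKO came where a broad weak domain faced a short Jmjd3-cKO peak. At Cspg4, a surface proteoglycan of mesenchymal cells, the widths were 6799 and 316 bp, a ratio of 21.5, with fold enrichments of 3.22 and 2.37. Mylk2, a myosin kinase, had 6232 and 345 bp, the pair Cactin and Tbxa2r 5035 and 296 bp, Sstr3, a somatostatin receptor, 5356 and 357 bp, and Fancc, of DNA repair, 5316 and 372 bp. Sema3g, Derl3 with Smarcb1 and Arhgef25 with Slc26a10 had ratios from 13.0 down to 11.5. In the same class Jmjd3-cKO led by less. At Hmga1, a chromatin architecture protein, the Utx-cKO peak was 3054 bp and the Jmjd3-cKO peak 7105 bp, a ratio of 2.33 in favour of Jmjd3-cKO. Capn6 followed with 3197 and 7229 bp, and Hspa9, the mitochondrial chaperone, with 3831 and 8475 bp. Chtop with S100a1, Bfsp1 with Dstn, Ptrh2 with Vmp1, Calu and Frmd6 had ratios from 1.95 down to 1.80. These 8 pairs had fold enrichments of 4.79 or more in both lists. Over pairs of any width, 221 of the 283 at least 2 times as wide in Jmjd3-cKO were in the lowest of the 4 rank groups, and the pair at Ccdc190, singled out after its values were seen, measured 540 bp in Utx-cKO and 2400 bp in Jmjd3-cKO, a ratio of 4.44. Of 1112 pairs near a gene end with a peak of 5 kb or more, 236 were at least 2 times as wide in Utx-cKO, and 3 were in Jmjd3-cKO.

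The order of the peaks by pileup was close in the 2 lists. A percentile rank of 100 is the highest pileup of a list. Over the 19644 pairs Spearman's rho was 0.94, as a description across peaks within these libraries, and the median difference, Utx-cKO minus Jmjd3-cKO, was 0.46 points (quartiles -5.24 to 5.64). The Utx-cKO peak ranked 20 points or more higher in 640 pairs (3.26%) and 20 points or more lower in 919 (4.68%). The fold enrichment rank differed in the same direction in 475 of the 640 and 660 of the 919, and by 20 points or more in 198 and 332. The median log2 width ratio was 0.31 in the 640 pairs and 0.82 in the 919, against 0.27 over all pairs. Whether width plays a part in these rank differences was not tested. Pairs with such rank differences were mostly away from gene ends: 21.6% of those higher and 22% of those lower lay at one, against 56.6% of all pairs. On the X chromosome, 13 of 492 pairs were higher by that margin and 12 lower, with a median difference of 1.77 points.

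**Figure D5:**
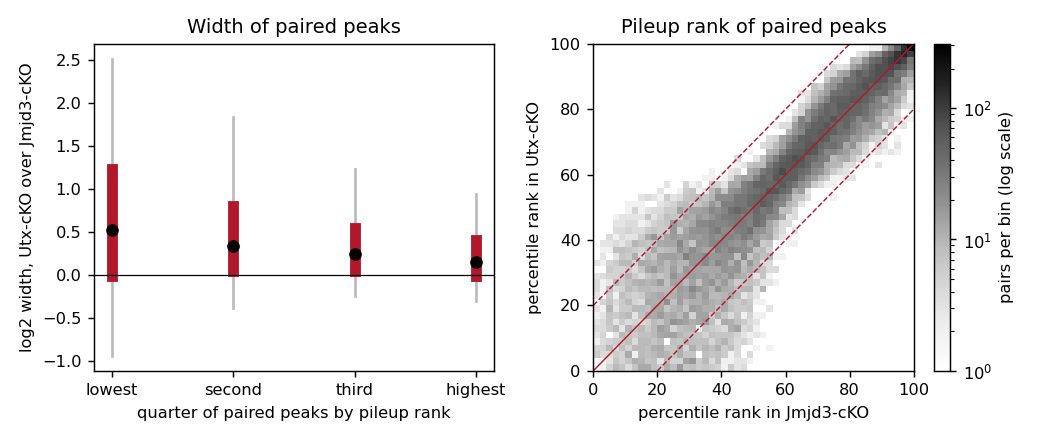
Left, log2 ratio of the widths of paired peaks in 4 equal groups by pileup rank (black point, median; red bar, quartiles; grey line, 5th to 95th percentile). Right, percentile rank by pileup of the 19644 pairs in both lists, shaded by the number of pairs in each 2 by 2 point square on a log scale, with the line of equal rank and lines 20 points away from it. Spread is wide in the lower part of the lists and narrow at the top.

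At the level of genes, 13495 marked in both lists were ranked by their strongest peak. In 97.4% the strongest peaks of the 2 lists overlapped, and 55.3% ranked within 5 points of each other. In 179 genes (1.33%) the rank was 20 points or more higher in Utx-cKO, and in 218 (1.62%) 20 points or more lower. Acp4, an acid phosphatase of enamel, differed most, at percentile 11.5 in Jmjd3-cKO and 89.6 in Utx-cKO, where a domain of 9300 bp lay over 2 Jmjd3-cKO peaks. Cldn15, of tight junctions, stood at 18.9 and 73.1, with widths of 356 and 5243 bp. H60b, a ligand of natural killer cell receptors, stood at 3.20 and 49.7. These were the 3 of the 10 genes with the largest differences in this direction in which the strongest peaks overlapped. At Spef1, Osbpl2, Brd3, Npas1, Slc5a5, Odf3 and Asb4, with differences from 49.2 to 67.9 points, the strongest peak sat at another place in each list, so the gene's rank and not that of 1 region differs.

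In the other direction Fut7, a fucosyltransferase of leukocyte homing, stood at 86.3 in Jmjd3-cKO and 28.2 in Utx-cKO, and Entpd3 at 93.6 and 52.8, again with strongest peaks at different places. In the other 8 of the 10 largest the peaks overlapped. Upb1, of pyrimidine breakdown, stood at 52.4 and 4.41, Tlk2, a chromatin assembly kinase, at 47.5 and 0.30, Kcnj11, a potassium channel, at 48.8 and 5.37, and Npy, a neuropeptide, at 42.7 and 0.30. These 4 genes were near the middle of the Jmjd3-cKO list and near the edge of the shortened Utx-cKO list. Large2, Rprml, Zfp994 and Nyx differed by -44.8 to -36.8 points, Utx-cKO minus Jmjd3-cKO. At Nyx the rank by fold enrichment went the other way, 5.78 points higher in Utx-cKO.

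Among list members, Col9a1 was the cartilage gene that ranked 20 points or more higher in Utx-cKO (28.6 points, with widths of 2511 and 1197 bp), and none ranked that much lower. Fgfr3, the growth factor receptor that restrains growth plate cells, differed by -22.4 points, with a peak of 18278 bp in Utx-cKO and 3649 bp in Jmjd3-cKO. The Utx-cKO peak lay over 3 Jmjd3-cKO peaks that covered 34.9% of it. The strongest peak was 3547 bp in wild type and 10493 bp in Ezh2-cKO. Crabp1 and Crabp2, which bind retinoic acid in the cell, differed by -25.5 and -20.4 points, and Pax9, of skeletal patterning, by -30.1. Hoxb5, Hoxb9 and Hoxd13 differed by -25.7, -23.1 and -21.2 points. Hoxa5 (36.4 points) and Hoxd10 (23.3) ranked higher in Utx-cKO, as did Stra6, the retinol transporter (23.8), Adipoq, a hormone of fat cells (25.5), and Adamts4, an aggrecan-cleaving protease (32.1). At these 5 the strongest peak sat at another place in each list.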

How the data were processed

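H3K27me3 ChIP libraries of 4 genotypes, each with an input, were sequenced in mouse chondrocytes. The submitters' processing notes name Bowtie2, MACS2 and ChIPseeker, besides FastQC 0.11.5, deepTools 2.4.1 and HOMER 4.10. MACS 2.1.2 made the lists for the authors in broad mode on paired-end fragments, per the file headers, with each genotype's input as control, q 0.05 and the larger library scaled down. The sources used here do not give the genome build or the handling of reads that match several places. For each peak the deposited lists hold a pileup (coverage signal), the −log10 of its p and its q, the fold enrichment (a ratio over input) and the length in bp.

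Peaks counted as overlapping from 1 bp. Genes were the 21887 protein-coding symbols of the RefSeq table of GRCm38.p6 on chromosomes 1 to 19, X and Y, given without exons. Scaffold names matched that build. Around 17492 RefSeq gene starts, 11418 genes had a Utx-cKO peak within 1 kb, against 2708 and 2700 when positions were moved by 20 kb, and the Jmjd3-cKO numbers were 10850, 1388 and 1395. Sequences are RefSeq's. One-to-one pairs are peaks that each overlap exactly 1 peak of the other list.

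Members, gene lists (22 lists, 530 entries, 528 matched, 1 through a synonym) and naming rule were chosen with earlier results of these data known. The rule named, per direction, the 12 strongest genes in 1 list only, the 12 strongest without a peak in the other full list, up to 8 domains, width pairs and bridging peaks, the 10 largest rank rises and falls, every list member in 1 list only, and Kdm6a, Kdm6b, Uty, Ezh2, Sox9, Col2a1, Acan, Runx2, Ihh, Wnt10a and Hoxc10. A few genes picked by this rule are left unreported. Predicted genes named by number were counted but not named. Other list members were named after their values were seen. Alternatives were full lists, ranking by fold or q, 10000 peaks a list, q of 0.001 or less, autosomes, merging within 3 kb, a 50% overlap, and other windows and domain lengths. Overlap, gene and width steps were tested on simulated peaks. The scripts ran under Python 3.11.15 with pandas 2.3.3, numpy 2.4.6, matplotlib 3.10.9 and scipy 1.17.1.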

Additional observations from a re-analysis of the deposited data

How the results depend on the processing

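No paired analysis was possible because each genotype has 1 ChIP library. In all settings run, paired peaks were wider in Utx-cKO: the median log2 ratio, 0.27 as reported, was 0.28 with full lists, 0.20 with the 10000 strongest peaks, 0.25 at q of 0.001 or less, 0.24 with peaks within 3 kb merged and 0.22 at equal covered length. Equal covered length and RefSeq gene starts were chosen after seeing the data. Genes in 1 list only, 339 in Utx-cKO and 221 in Jmjd3-cKO as reported, were 800 and 68 with full lists, 602 and 86 at q of 0.001 or less, 478 and 390 with the 10000 strongest peaks, 215 and 146 within 1 kb of gene starts, and 49 and 1003 at equal covered length, where the order turned. The overlapped share of the Utx-cKO and Jmjd3-cKO peaks, 76.1% and 78.9%, was 47.7% and 89.9% with full lists, 74.8% and 77.6% ranked by fold, 75.4% and 78.2% by q, 93.0% and 93.7% with 10000 peaks, 67.7% and 92.1% at q of 0.001 or less, 78.3% and 80.4% merged, 75.3% and 78.0% with 50% of the shorter peak required, and 97.9% and 56.6% at equal covered length. Domains in 1 list only, 36 in Utx-cKO and 0 in Jmjd3-cKO, were 68 and 0 with full lists, 36 and 1 by fold, 40 and 1 by q, 43 and 19 with 10000 peaks, 105 and 0 at q of 0.001 or less, 56 and 15 merged, 191 and 15 at 3 kb, 1 and 0 at 10 kb, and 0 and 14 at equal covered length. Pairs ranked 20 points or more higher and lower, 640 and 919, were 1100 and 1052 with 10000 peaks. Full lists gave 8313 and 100, q of 0.001 or less 3263 and 94, and equal covered length 7 and 7123, settings in which the lists differ in length, which shifts every percentile by construction. Autosomes, and gene windows of 1 and 5 kb or the whole gene, kept the counts they were run for within 1.5 times. The lowest pileup called was 12 for Utx-cKO and 11 for Jmjd3-cKO, and the part that depth plays in these differences was not tested.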

Other observations

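The Jmjd3-cKO and wild-type lists marked a group of chromosome 17 genes that the Ezh2-cKO list and the shortened Utx-cKO list did not. This pattern was noticed in the data and is given without a test. Of the 221 genes marked in Jmjd3-cKO only, 27 were marked in wild type and not in Ezh2-cKO. On chromosome 17 that held for 7 of 17, more than on any other chromosome, where the number was at most 2. The 5 of these 7 with a gene name were Dynlt1b, Rnaset2b, Tcte3, Ermard and H2-T-ps. With full lists 7 of the 17 genes were still in Jmjd3-cKO only, but not the same 7. Ankrd66, with no wild-type peak, and H2-Q2, with an Ezh2-cKO peak, were among them. Some of the first 7 therefore had a Utx-cKO peak within 5 kb in the full list. Among genes marked in both demethylase knockouts but 20 points or more lower in Utx-cKO, 15 lay on chromosome 17, against 24 on chromosome 11 and 22 on chromosome 10. Of the 15, 4 had a wild-type peak and no Ezh2-cKO peak, among them Zfp994 and the class I genes H2-T22 and H2-T23. These genes and H2-K1 did have a peak in the shortened Utx-cKO list, so they lie outside the group that list lacked. At H2-K1 the strongest peak was 1365 bp in Jmjd3-cKO, 1260 bp in wild type, 1157 bp in Utx-cKO and 239 bp in Ezh2-cKO, and its fold enrichment was 7.02 in Jmjd3-cKO and 3.54 in Utx-cKO. Several of these genes have close copies, and the sources used here do not give the strain of each genotype.

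Keratin genes stood on both sides: Krt8, of simple epithelia, was marked in Utx-cKO only, and its partner Krt18 and Krt7 in Jmjd3-cKO only, at equal length, while 8 of 112 keratin genes were marked in both. Of 389 solute carrier genes 250 were marked in both lists, 10 in Utx-cKO only and 3 in Jmjd3-cKO only. Over all genes the shares are 61.7%, 1.55% and 1.01% in the same order. Of 400 zinc finger genes with Zfp names, 335 were marked in both, 6 in Utx-cKO only and 0 in Jmjd3-cKO only.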
